A study of Mus musculus with 6 samples.

Results

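The ephrin-B ligands (*Efnb1*, *Efnb2* and *Efnb3*) and the EphB receptors (*Ephb1*, *Ephb2*, *Ephb3*, *Ephb4* and *Ephb6*) were followed in RNA-seq of cultured mouse retinal ganglion cells (RGCs), the neurons whose axons form the optic nerve. The 8 genes were taken by their mouse symbol, as the 3 ligand and 5 receptor genes of the family, out of 43346 Ensembl genes in the tables, and all 8 passed the filter on low counts. RGCs purified by immunopanning and cultured with forskolin, BDNF and CNTF received 1 of 3 AAV2 vectors, which carried EGFP alone (control), *Sox11* with EGFP, or a *Sox11* in which lysine 91 is replaced by alanine so that SUMO cannot be attached there (Sox11-K91A). Each group held 2 libraries, for 6 in all, and each well held 250000 cells, received AAV at 4 h after plating at 100000 vector genomes per cell and was lysed at 72 h. The cells are given as embryonic day 18 in the extraction protocol, as postnatal day 2 in the general culture protocol and as postnatal day 0 in the names of the tables. The mice of the study were C57BL/6 of both sexes, every group carried EGFP, and the number of animals behind a library is not stated. Nothing states that the 2 libraries of a group came from separate cultures, so the p-values measure only the spread between these libraries. The control pair and the Sox11 pair each differed in *Xist* and Y-linked transcripts (values below), which repeat libraries of the same cells would share. The Sox11-K91A pair differed in the delivered *Sox11* (values below), and whether its libraries were repeats of the same cells was not tested.

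Ephrin-Bs are transmembrane ligands and EphBs are receptor tyrosine kinases. When cells touch, the receptor signals forward into its own cell through adaptors and small GTPases, and the ligand signals in reverse through its cytoplasmic tail, which binds PDZ proteins. In the visual system the family steers RGC axons. EphB1 on RGCs meets ephrin-B2 at the optic chiasm and turns axons to the same side of the brain, while EphB2 and EphB3 are known from the ventral retina and from axon guidance to the optic disc. EphB4 and ephrin-B2 are best known from veins and arteries.

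The libraries held between 27521982 and 37061718 counts. *Sox11*, the delivered gene, stood at 234 and 332 CPM (counts scaled to library size by the TMM method) in the control libraries. In replicates 1 and 2 it stood at 9180 and 14600 CPM with Sox11 and at 12000 and 7030 CPM with Sox11-K91A. These were a 41.6-fold (Sox11) and 33.0-fold (Sox11-K91A) rise. Counts are per gene, which joins vector-borne and endogenous *Sox11* transcripts in 1 value. Control and Sox11 vectors parted on the first principal component (59.1% of the variance). Along it, the libraries with a Sox11 vector lay in the order of their *Sox11* levels. They lay at 9.55 (Sox11-K91A replicate 2), 21 (Sox11 replicate 1), 42.8 (Sox11-K91A replicate 1) and 87.3 (Sox11 replicate 2). The part of the *Sox11* level in the members' values was not tested. On the second component (19.5%), control replicate 2 and Sox11 replicate 2 lay away from the others. These libraries had the highest sums of 4 Y-linked genes (78.2 and 99.5 CPM, against 39.1 to 47.7 in the others) and the lowest *Xist* (95.9 and 254 CPM, against 400 to 526). The counts of members called against control are therefore also given below without this pair. Of 10 RGC markers, all tested, 3 were lower with Sox11 (*Slc17a6*, *Thy1* and *Nefl*) and 1 with Sox11-K91A (*Slc17a6*), named after their values were seen. Of all genes tested, 10.2% were called lower with Sox11 and 4.81% with Sox11-K91A. *Thy1* and *Nefl* were lower with Sox11-K91A as well (log2 fold changes -1.69 and -0.87), without passing the threshold given below. The 10 summed to 11400 and 10600 CPM in control and to between 5330 and 8380 in the other libraries, with *Nefl* the largest part of the sum (mean 6720 CPM in control, 3150 with Sox11 and 3710 with Sox11-K91A). The other 7 markers were called with neither virus, with log2 fold changes from -0.44 to 0.32 with Sox11 and from -0.32 to 0.45 with Sox11-K91A. The part of these changes in the members' values was not tested. In such bulk libraries, fewer cells of a kind and less RNA per cell cannot be told apart.

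To place the genes on the genome, their positions on GRCm38 were read from GENCODE M21. *Efnb1* lies on chromosome X from 99136130 to 99148991 (plus strand), *Efnb2* on chromosome 8 from 8617434 to 8661242 (minus) and *Efnb3* on chromosome 11 from 69554092 to 69560205 (minus). *Ephb1* spans 432566 bases of chromosome 9, from 101922128 to 102354693 (minus). *Ephb2* lies on chromosome 4 from 136647539 to 136835988 (minus), *Ephb3* on chromosome 16 from 21204755 to 21223305 (plus), *Ephb4* on chromosome 5 from 137350109 to 137378669 (plus) and *Ephb6* on chromosome 6 from 41605482 to 41620509 (plus). The 8 genes are thus on 8 different chromosomes. The counts of all 8 were whole in all 6 libraries (within 0.005), so no fractional share of a read was assigned to them. Only *Ephb1* and *Ephb4* share exon bases with another gene, in both cases on the other strand. *Gm26846* covers 2.17% of the exon bases of *Ephb1* and *Zan* covers 0.71% of those of *Ephb4*, and whether the counting used the strand is not stated.

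The promoters of 7 of the 8 genes were read from RefSeq (GRCm38.p6), as 300 bases from 250 before the start of the transcript to 50 after it. *Efnb3* had no entry. They were searched on both strands for AACAAT, a core bound by SOX proteins, and for ACAAAG, shared by SOX and TCF proteins. The letters ACAA are common to both. AACAAT was found in 1 of the 7 windows, that of *Ephb1*, and in 10.7% of 32851 windows of all genes. ACAAAG was found in 0 of 7 and in 18.7% of all. A match is a description of letters, and a window without one says nothing about binding elsewhere. The windows of *Ephb3* and *Ephb2* are shown because these receptors had the largest rises among the receptors, and that of *Ephb1* because it holds the only match. Capitals mark AACAAT, which lies 133 bases before the start of *Ephb1*, at chr9:102354821-102354826 on the minus strand. The windows are chr16:21204545-21204844 (plus strand), chr4:136835963-136836262 (minus) and chr9:102354644-102354943 (minus), each written 5′ to 3′ on the strand of its gene.
Ephb3: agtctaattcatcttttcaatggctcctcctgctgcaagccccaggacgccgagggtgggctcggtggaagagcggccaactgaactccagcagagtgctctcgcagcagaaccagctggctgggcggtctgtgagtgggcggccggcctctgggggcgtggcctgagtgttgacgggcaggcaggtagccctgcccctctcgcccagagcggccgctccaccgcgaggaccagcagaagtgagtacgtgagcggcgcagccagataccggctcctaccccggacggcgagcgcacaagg
Ephb2: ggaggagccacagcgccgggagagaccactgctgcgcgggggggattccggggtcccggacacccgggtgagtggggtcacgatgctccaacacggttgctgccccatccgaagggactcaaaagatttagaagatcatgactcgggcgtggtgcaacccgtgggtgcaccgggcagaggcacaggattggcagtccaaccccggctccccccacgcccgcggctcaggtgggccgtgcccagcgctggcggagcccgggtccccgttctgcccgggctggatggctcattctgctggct
Ephb1: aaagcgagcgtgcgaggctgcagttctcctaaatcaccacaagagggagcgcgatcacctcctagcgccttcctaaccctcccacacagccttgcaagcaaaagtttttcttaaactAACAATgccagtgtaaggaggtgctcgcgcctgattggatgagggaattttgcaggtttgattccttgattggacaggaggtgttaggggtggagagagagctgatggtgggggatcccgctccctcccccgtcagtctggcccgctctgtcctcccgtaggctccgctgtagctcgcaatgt
The 7 windows held between 55.7% and 76.3% G and C, against a median of 52.7% over all windows, and between 14 and 35 CG dinucleotides, against a median of 7.

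The first question was how much of each ligand and receptor these cultured RGCs carried without a Sox11 vector. Levels of different genes were compared in TPM, RSEM's measure of transcript abundance, which divides by length. In control cultures, *Efnb2* stood at 29.9 ± 13.8 TPM (SD, n = 2), *Efnb3* at 29.5 ± 0.721, *Ephb2* at 26.6 ± 7.35 and *Ephb1* at 19.9 ± 2.56. The ranges of each pair of neighbours in this order overlapped, but *Efnb3* (29.0 to 30.0 TPM) lay above *Ephb1* (18.1 to 21.8 TPM). Below them came *Ephb6*, the family's receptor without kinase activity, at 11.3 ± 0.361 TPM, then *Efnb1* at 8.77 ± 1.37 and *Ephb3* at 8.12 ± 2.18, whose ranges overlapped. *Ephb4* was last at 0.235 ± 0.106 TPM, from 18 and 13 counts in the control libraries, which put it at the 3.18th percentile of the genes tested. Ligands summed to 79.4 and 57.0 TPM and receptors to 74.6 and 57.9 TPM in the control libraries. A control RGC culture thus held ligand and receptor transcripts in about equal amounts, with a receptor to ligand ratio of 0.939 and 1.02.

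The second question was what Sox11 did to the family. All 8 genes had a positive log2 fold change against control, and 5 rose past the threshold, 2 ligands (*Efnb1* and *Efnb3*) and 3 receptors (*Ephb2*, *Ephb3* and *Ephb6*). The threshold was an adjusted p under 0.05 in limma-voom, adjusted over all 15747 genes tested, and a fold change above 1.2. Of all genes tested, 9.96% were called higher and 10.2% lower with Sox11. The median log2 fold change was 0.88 over the 8 members and 0.009 over all genes. In both directions, 20.1% of all genes were called. Both Sox11 libraries lay above both control libraries for 7 of the 8 members, a pattern seen in 30.9% of all genes, while 0 members lay below, as 30.6% of all genes did.

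*Ephb3*, a receptor with an active kinase, moved most. It stood at 18.1 and 14.5 CPM in control and at 51.7 and 61.8 CPM with Sox11. The Sox11 libraries were far above the control libraries, and the groups did not overlap. Its log2 fold change was 1.82 (standard error 0.23, adjusted p = 0.0115), a 3.52-fold rise with a 95% interval from 2.43 to 5.11. *Ephb2*, the receptor with the highest mean TPM in every group, had 110 and 81.3 CPM in control and 192 and 277 CPM with Sox11. The lower Sox11 library was still well above the higher control library. Its rise was 2.44-fold (log2 fold change 1.29, standard error 0.24, adjusted p = 0.0186).

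*Efnb1*, the X-linked ligand, stood at 15.1 and 13.2 CPM in control and at 30.5 and 35.7 CPM with Sox11, again without overlap. It rose 2.36-fold (log2 fold change 1.24, standard error 0.17, adjusted p = 0.0122). *Ephb6* had 19.9 and 16.1 CPM in control and 39.3 and 37.7 CPM with Sox11, where the replicates were nearly the same. It rose 2.17-fold (95% interval 1.66 to 2.84, adjusted p = 0.0127). *Efnb3*, the ligand known as a midline barrier in the spinal cord, had 45.2 and 47.8 CPM in control and 67.4 and 77.6 CPM with Sox11. Its rise was smaller, at 1.56-fold (log2 fold change 0.64, standard error 0.15, adjusted p = 0.0297).

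The other 3 members did not pass the test. *Ephb1*, the receptor of the same-side projection, had 49.0 and 44.6 CPM in control and 60.5 and 88.6 CPM with Sox11. The groups did not overlap, but the Sox11 libraries lay far apart, and the log2 fold change of 0.65 had an adjusted p of 0.067 (standard error 0.21). It became 0.91 without Sox11 replicate 1 and 0.38 without Sox11 replicate 2. DESeq2 called *Ephb1* (adjusted p = 0.0313), for 6 members in all. So did limma-voom with a covariate for Y-linked reads (adjusted p = 0.05 after rounding), also with 6 members. These 2 fits called 27.6% and 29% of all genes, against 20.1% in the fit used here. The covariate marked control replicate 2 and Sox11 replicate 2, by the Y-linked sums of these same data. *Efnb2* had 69.7 and 44.9 CPM in control and 75.6 and 74.5 CPM with Sox11, so that 1 control library lay close to the Sox11 libraries and the other far below. Its log2 fold change was 0.43 (standard error 0.21, adjusted p = 0.186), and it became 0.10 without control replicate 2 and 0.74 without control replicate 1. *Ephb4* stayed near the limit of detection, with 18 and 13 counts in control and 14 and 25 with Sox11, and its groups overlapped. Its log2 fold change was 0.47 (standard error 0.57, adjusted p = 0.588).

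**Figure D1:**
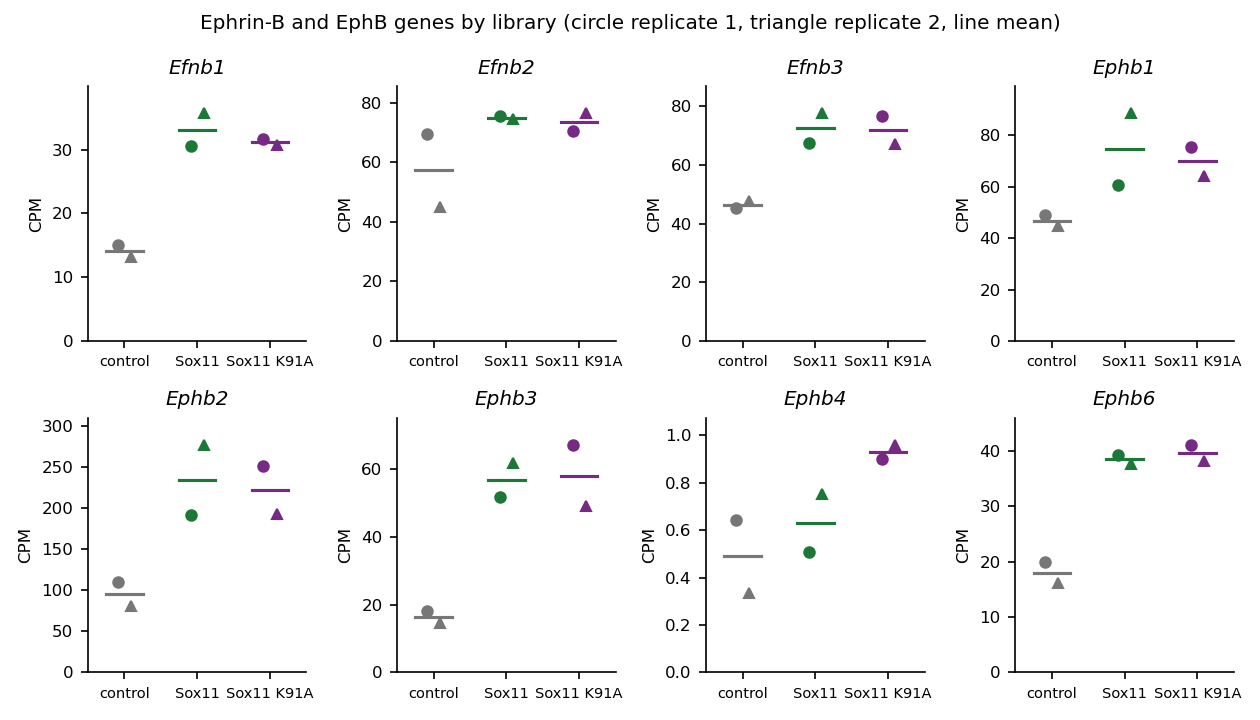
CPM of each ephrin-B and EphB gene (vertical axis, from 0) in the control, Sox11 and Sox11-K91A libraries, with a circle for replicate 1, a triangle for replicate 2 and a line at the mean of 2. For *Ephb2*, *Ephb3*, *Ephb6*, *Efnb1* and *Efnb3* the 4 libraries with a Sox11 vector lie above both control libraries, while for *Efnb2* the control libraries, at 69.7 and 44.9 CPM, lie far apart.

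The count of 5 members with Sox11 rested on few libraries. Where a group is left with 1 library, it is assumed to vary like the groups that keep 2. Without Sox11 replicate 2 it was 0, as was the count over all genes (0 called by limma-voom, 3347 with an unadjusted p under 0.05), and without control replicate 2 it was 3 (*Efnb1*, *Ephb3* and *Ephb6*), with 1790 genes in all. Without both libraries high in Y-linked genes, an alternative chosen after seeing the data that compares 1 control with 1 Sox11 library on the spread of the Sox11-K91A pair alone, the count was 3 as well (again *Efnb1*, *Ephb3* and *Ephb6*), against 2094 of all genes (6.1% called higher), and *Ephb2* had a log2 fold change of 0.82 (adjusted p = 0.0512). That pair was the tightest, with a median absolute log2 difference of 0.157 over all genes, against 0.344 in control and 0.262 with Sox11, so these p-values say little about the spread of the groups compared.

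The third question was whether Sox11 that cannot be SUMOylated at K91 acts on the family as well. With Sox11-K91A, all 8 members again had a positive log2 fold change and the 5 genes that rose were again *Efnb1*, *Efnb3*, *Ephb2*, *Ephb3* and *Ephb6*. Over all genes, 5.81% were called higher, 4.81% lower and 10.6% in both directions. Both Sox11-K91A libraries lay above both control libraries for 8 of 8 members and for 31.2% of all genes. The median log2 fold change was 1.09 over the 8 members and 0.017 over all genes. Both viruses were compared with the same control libraries, so the lists are not independent.

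*Ephb3* stood at 67.1 and 49.0 CPM with Sox11-K91A, a 3.58-fold rise over control (log2 fold change 1.84, standard error 0.23, adjusted p = 0.014). *Ephb2* stood at 251 and 193 CPM and rose 2.33-fold (log2 fold change 1.22, standard error 0.24, adjusted p = 0.03). *Ephb6* stood at 41.1 and 38.1 CPM and rose 2.23-fold (adjusted p = 0.0185), and *Efnb1* at 31.7 and 30.7 CPM and rose 2.23-fold (adjusted p = 0.0193). All of these libraries lay above both control libraries, by more than the replicates of a group differed. *Efnb3* stood at 76.7 and 67.1 CPM and rose 1.54-fold (adjusted p = 0.0434), the call nearest to the threshold. *Ephb1*, at 75.5 and 64.2 CPM, had a log2 fold change of 0.58 (standard error 0.21, adjusted p = 0.117). *Efnb2*, at 70.6 and 76.5 CPM, had 0.40 (standard error 0.21, adjusted p = 0.254), which became 0.08 without control replicate 2 and 0.71 without control replicate 1. *Ephb4* had 29 and 28 counts, above the 18 and 13 of control, and a log2 fold change of 1.02 (standard error 0.54, adjusted p = 0.252).

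Here too, single libraries carried the count. It was 0 without control replicate 2 (0 called in all, 4753 with an unadjusted p under 0.05), 0 without Sox11-K91A replicate 1 (19 called in all, 1948 with an unadjusted p under 0.05) and 1 without Sox11-K91A replicate 2 (*Ephb3*, with 319 in all). Without both libraries high in Y-linked genes, which leaves 1 control library and again the spread of the tight Sox11-K91A pair alone, it was 6, with *Ephb1* added and 4108 genes called in all (11.4% higher). Of the 5 genes, *Efnb3* was called under the fewest alternatives. Its adjusted p lay between 0.00565 and 0.424 over 20 alternatives, and it was called in 7 of them, while *Ephb3* was called in 18 of 20.

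**Figure D2:**
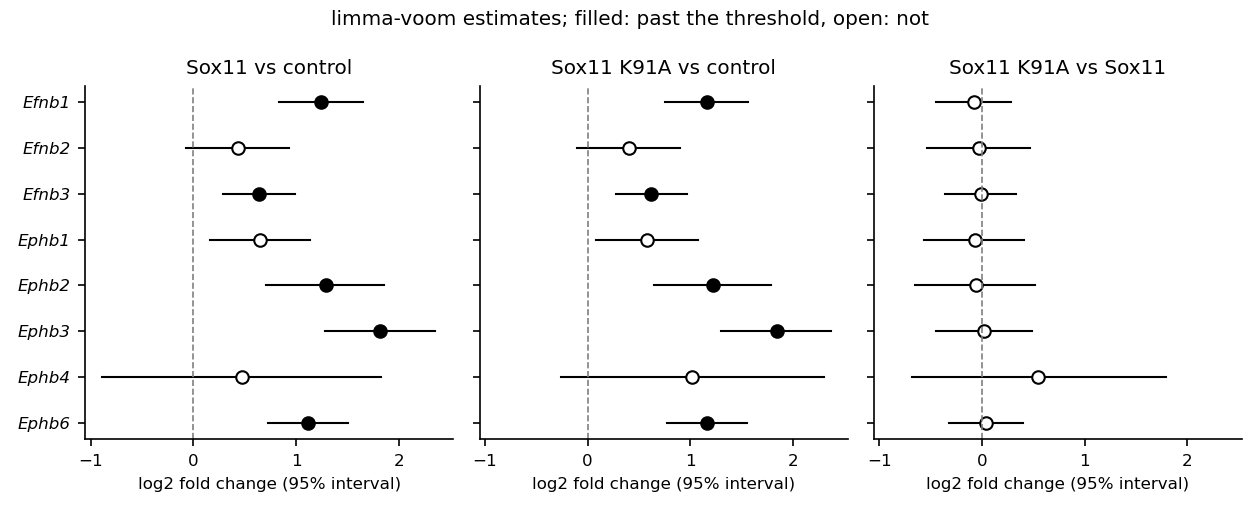
Log2 fold change of the 8 genes (horizontal axis) with its 95% interval from limma-voom in the 3 comparisons, filled where past the threshold and open where not. Against control the estimates run from 0.43 to 1.82 with Sox11 and from 0.40 to 1.84 with Sox11-K91A, and between the viruses they lie around 0, with the widest interval for *Ephb4*.

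The last comparison set the viruses against each other and asked whether the mutation changed the response. *Sox11* itself stood at 9180 and 14600 CPM with Sox11 and at 12000 and 7030 CPM with Sox11-K91A. With Sox11-K91A it was at 0.792 of the level with Sox11 (95% interval from 0.452 to 1.39), so its level varied within and between the groups. The part of this level in the comparison was not tested. None of the 8 members was called, with 0 of 8 by limma-voom, 0 by edgeR and 0 by DESeq2, and 0 with an unadjusted p under 0.05. Over all genes 0% were called by limma-voom, 108 had an unadjusted p under 0.05, and DESeq2 called 2. The difference in *Ephb3* was 0.02 on the log2 scale (95% interval from -0.45 to 0.49), that is between 0.733 and 1.41 of the level with Sox11. For *Ephb2* it was -0.06 (-0.65 to 0.52), for *Efnb1* -0.08 (-0.45 to 0.28), for *Ephb6* 0.04 (-0.32 to 0.40) and for *Efnb3* -0.01 (-0.36 to 0.33). For these 5 genes the widest interval ran from 0.639 to 1.43 of the level with Sox11 (*Ephb2*). It ran from 0.732 to 1.22 for *Efnb1*, from 0.781 to 1.26 for *Efnb3* and from 0.803 to 1.32 for *Ephb6*. With these libraries, any difference inside a gene's own interval remains possible. *Ephb1* differed by -0.07 (-0.56 to 0.41) and *Efnb2* by -0.03 (-0.53 to 0.47). For *Ephb4*, at 0.632 CPM with Sox11 and 0.93 CPM with Sox11-K91A, the interval from -0.68 to 1.79 leaves larger differences possible at this depth.

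Since the members did not move by equal amounts, the make-up of the family was described as well. *Ephb3* made up 13.0% and 11.4% of receptor TPM in control and between 20.2% and 22.6% in the 4 libraries with either virus. *Ephb1* went the other way, from 29.2% and 31.3% to between 20.9% and 25.5%. *Ephb2* kept the largest share, 42.7% and 37.0% in control and between 39.6% and 40.6% with either virus. Among the ligands, *Efnb1* made up 12.3% and 13.7% in control and between 18.1% and 19.8% with either virus, while *Efnb2* and *Efnb3* overlapped between groups. Receptors summed to 144 ± 19.8 TPM (SD, n = 2) with Sox11 and 140 ± 19.8 with Sox11-K91A, against 66.2 ± 11.8 in control, and ligands to 118 ± 10.6 and 108 ± 6.36, against 68.2 ± 15.8. The receptor to ligand ratio was 1.18 and 1.27 with Sox11 and 1.36 and 1.21 with Sox11-K91A, each above the control values. These sums and shares have no p-value, since an exact permutation test of 2 libraries against 2 cannot go below 0.333. With Sox11, *Ephb2* led the family at 57.7 ± 8.82 TPM, followed by *Efnb3* at 49.1 ± 5.35 and *Efnb2* at 45.9 ± 1.47, with overlapping neighbours.

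**Figure D3:**
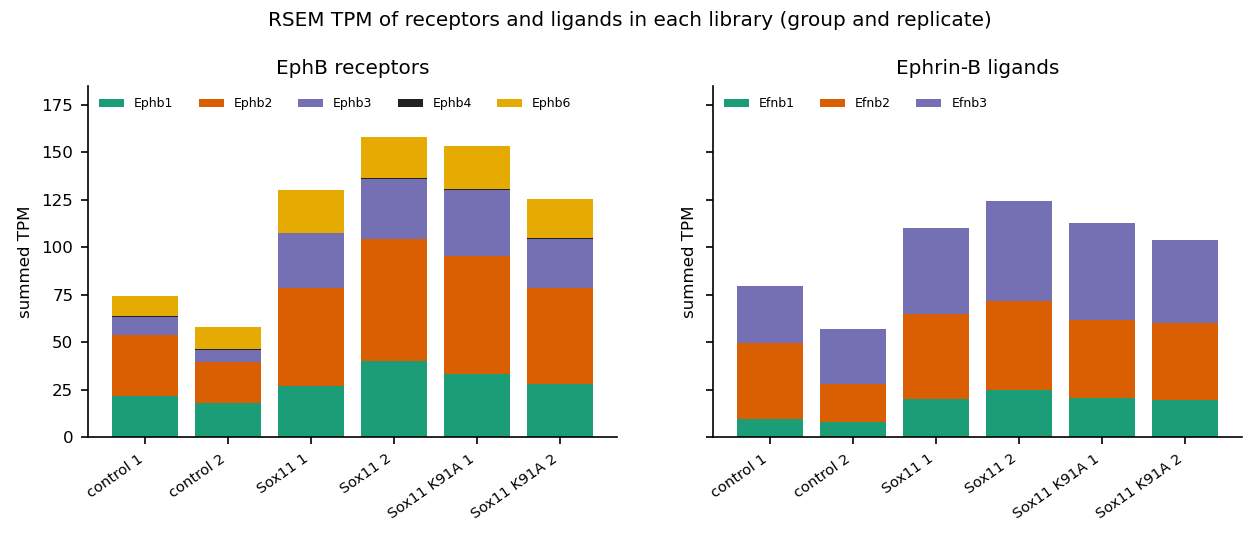
Summed TPM (vertical axis, from 0) of the 5 EphB receptors (left) and the 3 ephrin-B ligands (right) in each library, stacked by gene. Receptors sum to 74.6 and 57.9 TPM in control and to between 126 and 158 in the other libraries, and the *Ephb3* segment takes 11.4% and 13.0% of the control bars and 20.2% to 22.6% of the others.

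Genes with the most similar pattern were sought for the members with the lowest p with Sox11, by Pearson's correlation of log2 CPM over the 6 libraries among 13377 other genes. The closest to *Ephb3* were *A2m* (r = 0.9997), *Gpsm2* (0.9989) and *Clcn2* (0.9986). The closest to *Efnb1* were *Gm45784* (0.9995), *Dyrk3* (0.9988) and *Slc25a27* (0.9986). The 6 points share their libraries and fall into 3 groups, so these values are a description. Within the family, *Efnb1* and *Ephb3* followed each other most closely (r = 0.989) and *Efnb2* and *Efnb3* were among the least alike (r = 0.615).

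The class A ephrins and EphA receptors, the family's other branch, were read from a list of 14. Of 13 class A genes tested, 1 was higher and 3 were lower with Sox11, and 0 were higher and 2 were lower with Sox11-K91A, with a median log2 fold change of 0.37 and 0.07. Over all genes 9.96% were higher and 10.2% lower with Sox11, and 5.81% and 4.81% with Sox11-K91A, and these shares stand beside the counts of the lists that follow as well. Whether the classes differ was not tested. *Efna5*, a ligand that also binds EphB2, fell from 44.3 and 55.7 CPM in control to 29.0 and 26.8 under Sox11, and under Sox11-K91A to 25.4 and 29.5 (log2 fold changes -0.84 and -0.87, adjusted p = 0.0227 and 0.0305). *Epha10* fell with both viruses (-1.41 and -1.14). *Epha8* fell with Sox11 (-0.98, and -0.66 at an adjusted p of 0.0653 with Sox11-K91A), and *Epha7* rose with Sox11 (1.54, and 1.23 at an adjusted p of 0.0783).

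Partners of the EphB receptors inside the cell were read from a list of 36 adaptors, kinases and GTPase regulators. Of 35 tested, 8 were higher and 2 lower with Sox11, and 3 were higher and 0 lower with Sox11-K91A. *Pak1*, a kinase downstream of Rac and Cdc42, rose from 152 and 211 CPM to 342 and 479 under Sox11, and under Sox11-K91A to 393 and 344 (2.26-fold and 2.06-fold, adjusted p = 0.0197 and 0.0367). *Vav3*, an exchange factor for small GTPases, rose 2.09-fold and 1.92-fold. *Kalrn*, an exchange factor that acts behind EphB2 in dendritic spines, rose 3.75-fold with Sox11 (adjusted p = 0.0442) and was 3.66-fold higher with Sox11-K91A at an adjusted p of 0.0636. Its control libraries differed widely, at 70.9 and 19.7 CPM. The adaptor *Grb10* and the lipid phosphatase *Inppl1* fell with Sox11 (log2 fold changes -0.83 and -0.76), and with Sox11-K91A they had -0.83 and -0.80 at adjusted p of 0.0508 and 0.0582.

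Of 11 genes of reverse signalling, 1 rose and 1 fell with each virus, close to the 9.96% and 10.2% of all genes with Sox11, and beside 5.81% and 4.81% with Sox11-K91A. *Rgs3*, which binds the ephrin-B tail and dampens G protein signals, rose from 48.1 and 48.6 CPM to 141 and 159 under Sox11, and under Sox11-K91A to 169 and 142 (3.09-fold and 3.20-fold, adjusted p = 0.00753 and 0.00919). *Pard6b*, a polarity protein that ephrin-B1 binds, fell (log2 fold changes -0.92 and -0.84). Among the proteases that cut ephrin-Bs or EphBs, with 9 of 10 tested, 2 were higher and 2 lower with Sox11 and 1 was higher and 1 lower with Sox11-K91A, against 9.96% and 10.2% of all genes and 5.81% and 4.81%. The matrix metalloproteinase *Mmp2* rose from 5.22 and 7.11 CPM to between 44.8 and 60.1 CPM in the 4 libraries with either virus (log2 fold changes 3.07 and 3.06), and *Mmp9* fell from 4.58 and 5.63 CPM to between 0.452 and 1.06. *Adam10*, the main sheddase of ephrins, rose 2.25-fold with Sox11 (adjusted p = 0.0186) and was 1.79-fold higher with Sox11-K91A (adjusted p = 0.0556). *Psen2*, a gamma-secretase subunit, fell with Sox11 (log2 fold change -1.52), and had -1.13 with Sox11-K91A at an adjusted p of 0.056.

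**Figure D4:**
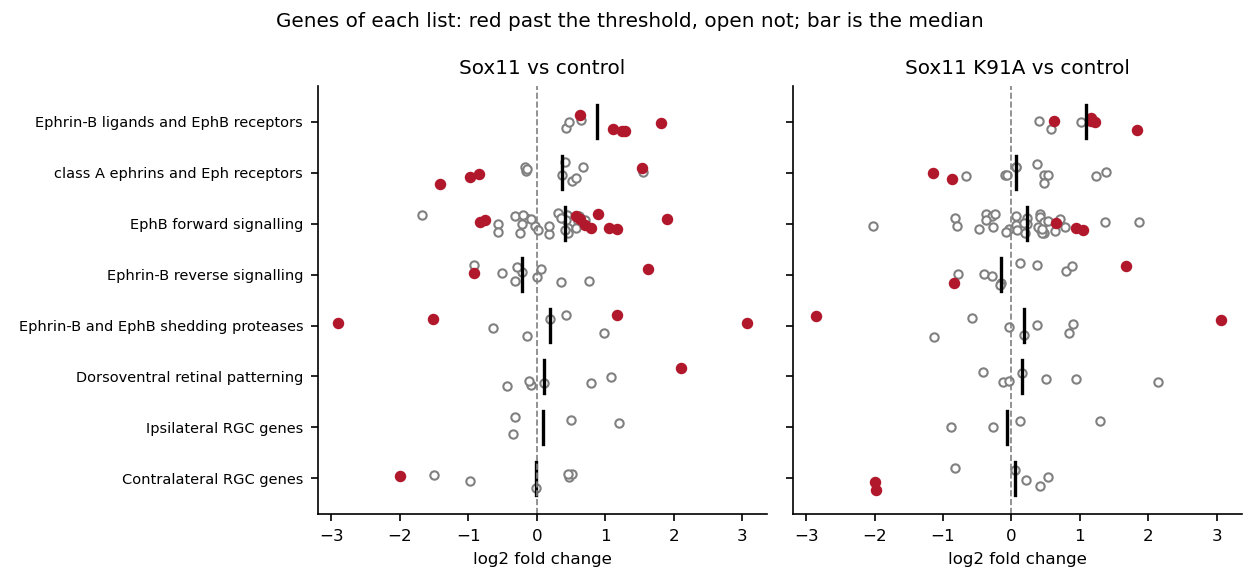
Log2 fold change against control (horizontal axis) of each tested gene of the family and of 7 related lists, with Sox11 (left) and Sox11-K91A (right), red where past the threshold, and with a bar at the list's median. All 8 ephrin-B and EphB genes lie above 0, with medians of 0.88 and 1.09, while the other lists hold genes on both sides.

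Ephrin-B and EphB genes form opposed gradients along the dorsoventral axis of the retina, so genes that set this axis were read as well. Of 7 tested, 1 was higher with Sox11 and 0 with Sox11-K91A. This was *Bmpr1b*, a BMP receptor, at 1.22 and 0.363 CPM in control and 2.51 and 2.96 CPM with Sox11 (log2 fold change 2.11, adjusted p = 0.0397), and at 2.64 and 2.98 CPM with Sox11-K91A (2.14, adjusted p = 0.053). Of 4 genes of same-side RGCs tested, 0 were called with either virus by limma-voom, and 1, the serotonin transporter *Slc6a4*, named after its values were seen, had an unadjusted p under 0.05 (adjusted p = 0.0643 and 0.0707). Over all 15747 genes tested, 5985 had an unadjusted p under 0.05 with Sox11 and 4817 with Sox11-K91A. Of 7 genes of crossing RGCs, 1 was lower with Sox11 and 2 with Sox11-K91A, against 10.2% and 4.81% of all genes. *Pou3f1*, a factor of crossing RGCs, fell from 58.8 and 57.9 CPM to between 12.2 and 18.1 CPM (adjusted p = 0.0112 and 0.0124). *Igf1* had 65.0 and 170 CPM in control and fell with Sox11-K91A, to 19.7 and 35.4 CPM (-1.99, adjusted p = 0.0434). With Sox11 its log2 fold change was -1.50 at an adjusted p of 0.0588.

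Because ephrin-B2 and EphB4 belong to vessels as well, markers of other cells were set beside the members. The 7 endothelial markers summed to 5.51 and 4.57 CPM in control, 10.1 and 6.97 with Sox11 and 12.8 and 10.0 with Sox11-K91A, in the same direction as the members. *Kdr* was the largest part of this sum (mean 3.68 CPM in control, 5.38 with Sox11 and 7.32 with Sox11-K91A) and was called with neither virus. Of the 4 endothelial markers tested, 2 were higher with Sox11-K91A (*Pecam1* and *Tek*, named after their values were seen), against 5.81% of all genes. With Sox11, 0 were higher (limma-voom, adjusted p = 0.0504 for *Pecam1*), against 9.96% of all genes. The defining markers *Cdh5*, *Cldn5* and *Tie1* were too low to be tested. *Tie1* went the other way, from a mean of 0.243 CPM in control to 0 with Sox11 and 0.0155 with Sox11-K91A. The 7 glial markers summed to 108 and 103 CPM in control and to between 269 and 314 with either virus. Nearly all of this was *Glul* (101 CPM in control, 284 with Sox11 and 289 with Sox11-K91A), while *Gfap* was at 0 in every library. Of the 5 glial markers tested, *Glul* was higher with both viruses and *S100b* lower with Sox11 (0.466 CPM in control, 0.0364 with Sox11, adjusted p = 0.0428), and the list's median log2 fold change was -2.13 with Sox11 and -0.90 with Sox11-K91A, opposite in sign to its sum. *Slc1a3* and *Rlbp1* had -2.13 and -2.51 with Sox11 and were not called (adjusted p = 0.152 and 0.0901). *Aldh1l1* went the other way, with 0.88 with Sox11 and 1.00 with Sox11-K91A, and was called with neither. Markers of pericytes (2.26 to 3.68 CPM) and microglia (0.362 to 2.05) were near 0 in every library, and progenitor markers (8.82 to 19.0) overlapped between groups. Amacrine markers were lowest in control replicate 2 and Sox11 replicate 2, at 24.4 and 16.9 CPM, against 54.8 to 92.6 in the others. Of the 5, the glycine transporter *Slc6a9* was the 1 called, lower with both viruses (mean 22.6 CPM in control, 5.27 with Sox11 and 6.56 with Sox11-K91A, adjusted p = 0.018 and 0.0338). The amacrine list's median log2 fold change was 0.22 with Sox11 and 1.25 with Sox11-K91A, opposite in sign to *Slc6a9*. *Tfap2a* (2.06 and 2.62), *Tfap2b* (1.15 and 2.13) and *Slc32a1* (0.22 and 1.25) had positive values with both viruses. *Gad1* had -0.59 with Sox11 and 1.06 with Sox11-K91A. These glial and amacrine markers were named after their values were seen. The part of these cells in the members' values was not tested.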

How the data were processed

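The authors aligned reads to mm10 and quantified genes with STAR and RSEM, per the labels. The deposited tables hold RSEM expected counts and TPM per gene for each library. Expected counts were rounded, and genes were filtered with filterByExpr, which left 15747, and scaled by TMM. All 6 libraries were fitted together in limma-voom (limma 3.58.1, edgeR 4.0.16, R 4.3.3), after the study's methods, with p-values adjusted by Benjamini-Hochberg and a gene called at an adjusted p under 0.05 and a fold above 1.2. TPM was used for levels between genes. Replicate libraries differed by more than counting noise. All 8 members were named, and from each list the called genes, up to 3 that rose most and 3 that fell most by the mean over both viruses. The members and lists were chosen with earlier results of these data known. Scripts were tested on simulated data. Alternatives were edgeR's quasi-likelihood test, DESeq2 1.42.0, other scalings and filters, log2(TPM + 1) and log2(TPM + 0.1), quality weights, a covariate for Y-linked reads, and leaving out libraries. No column was without a sample.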

Additional observations from a re-analysis of the deposited data

How the results depend on the processing

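With 2 libraries a group, the calls depend on single libraries, and the depth limits *Ephb4* (127 counts over all libraries). Leaving out 1 library at a time, between 0 and 6 members were called with Sox11 and between 0 and 5 with Sox11-K91A, and between 0 and 3753 and between 0 and 2563 of all genes. The cause of the changes that follow was not tested. With Sox11, quality weights called 3 members and 979 genes, TPM + 0.1 called 2107 genes, the fit of only the 2 groups 1598, and leaving out the libraries high in Y-linked reads 3 members and 2094 genes. With Sox11-K91A, all genes called were 3144 by DESeq2, 936 with TPM + 1, 896 with TPM + 0.1, 2894 with the Y-linked covariate and 4108 without the libraries high in Y-linked reads. Between the viruses DESeq2 called 2 genes. No member changed sign against control except *Ephb4* with Sox11 (-0.32 without the libraries high in Y-linked reads, -0.03 to 0.89 leaving out 1 library). Between the viruses, signs turned without the libraries high in Y-linked reads for *Efnb1* (0.03), *Efnb3* (0.09), *Ephb1* (0.20) and *Ephb2* (0.20), with the Y-linked covariate for *Efnb3* (0.06), *Ephb1* (0.04) and *Ephb6* (-0.04), and with TPM + 1 and TPM + 0.1 for *Ephb3* (-0.02 in both) and *Ephb6* (-0.01 in both). Leaving out 1 library, these differences ran from -0.18 to 0.03 for *Efnb1*, -0.09 to 0.03 for *Efnb2*, -0.11 to 0.09 for *Efnb3*, -0.33 to 0.20 for *Ephb1*, -0.31 to 0.20 for *Ephb2*, -0.21 to 0.25 for *Ephb3* and -0.01 to 0.10 for *Ephb6*. Nothing states that the replicate numbers pair the libraries. Same-numbered deviations correlated at 0.231 for control and Sox11, -0.033 for control and Sox11-K91A and -0.232 for Sox11 and Sox11-K91A. Control replicate 2 and Sox11 replicate 2 shared the Y-linked, *Xist* and amacrine pattern given above, and whether they shared a culture was not tested. With the replicate block, 5 members and 2679 genes were called with Sox11, 4 and 1402 with Sox11-K91A (*Efnb3* had an adjusted p of 0.0653), and 0 and 0 between the viruses, where the crossed block, chosen after seeing the data like the fits without the libraries high in Y-linked reads, also gave 0.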
